A study of Rattus norvegicus with 10 samples.

Results

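The carriers that move folate, thiamine, riboflavin, biotin, pantothenate, ascorbate and choline compounds across cell membranes were examined in epithelial cells of the rat distal colon. The set was 10 genes named by symbol (Slc46a1, Slc19a1, Slc19a2, Slc19a3, Slc44a4, Slc52a2, Slc52a3, Slc5a6, Slc23a1 and Slc23a2) among the 23422 genes of the count table, and each symbol matched 1 gene. The genes were chosen by name with their fold changes and calls between the diets in these same libraries known, so the differences of the carriers between diets are given as description, without a test. RNA came from 10 male Wistar Munich rats, each a separate animal. Control rats 1, 2, 5, 6 and 9 ate standard rodent chow. Cholate rats 3, 4, 7, 8 and 11 ate it for 10 days with 1% by weight of added sodium cholate, a bile salt made by the liver. All rats lived singly in metabolic cages, and per the series design text the sequenced rats were those with the highest RNA concentration on each diet. Epithelial cells were shaken off the distal segment of the colon in calcium-free buffer with EDTA.

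Levels are in CPM, read counts relative to a library size scaled by the trimmed mean of M values (TMM). Total counts per library ran from 14337356 to 45285762. The preparation carried its labelled identity, with 11 colonocyte markers that summed to 10639 to 12835 CPM in controls and 17305 to 22236 CPM on cholate. The sum of 12 immune markers was 13.7 to 21.8 CPM in controls and 15.0 to 39.9 CPM on cholate, and that of 9 stroma and endothelium markers was 6.70 to 11.1 and 1.14 to 6.59 CPM, with Col1a2 at 0 in every library. The part of these cell types in the values below was not tested. The libraries of control rats 5 and 9 and cholate rats 8 and 11 stood apart from the other 6 on the first principal component, which held 46.8% of the variance (scores of 8.08 to 79.6 against -46.4 to -26.7), and this component did not follow the diet. Control rat 5, at 8.08, lay between the sets and nearer to cholate rat 4 (-26.65) than to control rat 9 (57.0), so its place in the set of 4 is uncertain. Differences are therefore given also among controls 1, 2 and 6 with cholate rats 3, 4 and 7, and among controls 5 and 9 with cholate rats 8 and 11. In bulk RNA, fewer cells that express a gene and less of its RNA per cell cannot be told apart.

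Mammalian cells cannot make most of these vitamins and take them up through dedicated membrane proteins. Slc46a1 carries folate together with protons and works best at acid pH, while Slc19a1 exchanges reduced folates for other anions at neutral pH. Slc19a2 and Slc19a3, close relatives of Slc19a1, carry thiamine. In the colon, where bacteria also make B vitamins, Slc44a4 is known from human cells as a carrier of thiamine pyrophosphate, the phosphorylated form. Unlike humans, rats make ascorbate in the liver.

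Of the 10 carriers, 8 matched by gene ID to the RefSeq promoter table of build GRCr8, a newer build than the rn6 annotation of the counts. The 250 bases before the annotated start are shown for the 3 matched carriers whose cholate levels lay wholly below the control levels and for the 1 that lay wholly above. Both the promoters shown and the motifs searched were chosen after the values were seen. Capitals mark the GC box GGGCGG, bound by the Sp family, and the CCAAT box CCAAT, each searched on both strands.
Slc46a1: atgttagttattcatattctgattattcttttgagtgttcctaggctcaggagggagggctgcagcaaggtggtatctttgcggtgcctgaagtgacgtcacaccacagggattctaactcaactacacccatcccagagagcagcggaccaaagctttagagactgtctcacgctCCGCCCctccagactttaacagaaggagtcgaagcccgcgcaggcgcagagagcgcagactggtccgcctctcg
Slc19a3: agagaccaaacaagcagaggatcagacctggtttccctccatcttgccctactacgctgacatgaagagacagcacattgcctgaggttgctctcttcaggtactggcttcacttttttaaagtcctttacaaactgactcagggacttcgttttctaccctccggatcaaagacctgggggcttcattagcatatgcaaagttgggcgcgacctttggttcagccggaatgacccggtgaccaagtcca
Slc5a6: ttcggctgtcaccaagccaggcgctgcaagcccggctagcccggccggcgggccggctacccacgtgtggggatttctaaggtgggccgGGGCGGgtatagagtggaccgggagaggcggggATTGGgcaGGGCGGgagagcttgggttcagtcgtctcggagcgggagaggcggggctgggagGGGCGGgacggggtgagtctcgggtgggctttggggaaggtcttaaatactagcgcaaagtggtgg
Slc19a1: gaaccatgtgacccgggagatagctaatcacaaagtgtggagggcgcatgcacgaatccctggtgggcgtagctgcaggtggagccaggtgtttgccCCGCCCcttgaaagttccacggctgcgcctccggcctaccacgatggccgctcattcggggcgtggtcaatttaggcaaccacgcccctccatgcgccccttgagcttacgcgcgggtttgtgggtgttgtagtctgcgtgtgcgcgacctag
These stretches lie at chr10:63859301-63859550 on the plus strand for Slc46a1, chr9:91747130-91747379 on the minus strand for Slc19a3, chr6:31040150-31040399 on the plus strand for Slc5a6 and chr20:11600937-11601186 on the minus strand for Slc19a1. The GC box was present in 7 of the 8 carriers, all but Slc19a3, and in 30.5% of 33469 promoters of the same length. The carriers were searched with 1 promoter per gene, while the 33469 were not reduced in this way. The CCAAT box was present in 3 of 8 and in 34.0% of promoters. None of the 8 held TATAAA (12.9% of promoters), the nuclear receptor half-site AGGTCA (14.1%), the CDX core TTTATG (11.4%) or the HNF4 site CAAAGTCCA (0.338%). The GC content was lowest for Slc19a3 at 50.0%, against 53.6% for Slc46a1, 62.0% for Slc19a1, 68.0% for Slc5a6 and a median of 51.2% over all promoters. Among the matched carriers not shown it was 53.6% for Slc23a1, 58.4% for Slc44a4, 72.4% for Slc19a2 and 79.6% for Slc23a2. The part of GC content in the GC box matches was not tested. A match is a run of letters and not a measured binding site.

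The folate carriers differed between the diets in opposite directions. Slc46a1 (Entrez 303333, rn6 chromosome 10, 65728508 to 65741708, plus strand) stood at 31.9, 26.0, 21.9, 20.9 and 26.0 CPM in control rats 1, 2, 5, 6 and 9. It stood at 2.18, 2.36, 2.33, 4.01 and 4.86 CPM in cholate rats 3, 4, 7, 8 and 11. Every cholate rat lay far below every control rat, and the highest cholate values were those of rats 8 and 11. The means were 25.3 ± 4.34 and 3.15 ± 1.21 CPM (SD, n = 5 per diet), a log2 fold change of -3.03 (SE 0.27). It was -3.48 in the 6 libraries on 1 side of the first component and -2.47 in the other 4. Leaving out 1 rat at a time gave -3.24 to -2.92.

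Slc19a1 (Entrez 29723, chromosome 20, 12334675 to 12354517, minus strand) ran the other way. Its control levels were 11.3, 10.7, 16.0, 10.9 and 16.7 CPM in rats 1, 2, 5, 6 and 9, and its cholate levels were 24.3, 21.2, 19.1, 19.8 and 21.1 CPM in rats 3, 4, 7, 8 and 11. The diets did not overlap, and the control rats nearest to the cholate rats were 5 and 9. The means were 13.1 ± 2.96 and 21.1 ± 1.99 CPM, a log2 fold change of 0.68 (SE 0.17), with 1.00 among the 6 libraries and 0.28 among the 4. Both genes come from the same RNA of each rat, so their ratio does not depend on library scaling. Per kilobase of coding length, the Slc46a1 level over the Slc19a1 level was 2.25 ± 0.672 in controls, with a range over rats from 1.52 to 3.14. On cholate the ratio was 0.168 ± 0.0683, from 0.1 in rat 3 to 0.257 in rat 11. Slc46a1 was thus the more abundant folate carrier in each of the 5 control rats, and Slc19a1 in each of the 5 cholate rats.

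**Figure D1:**
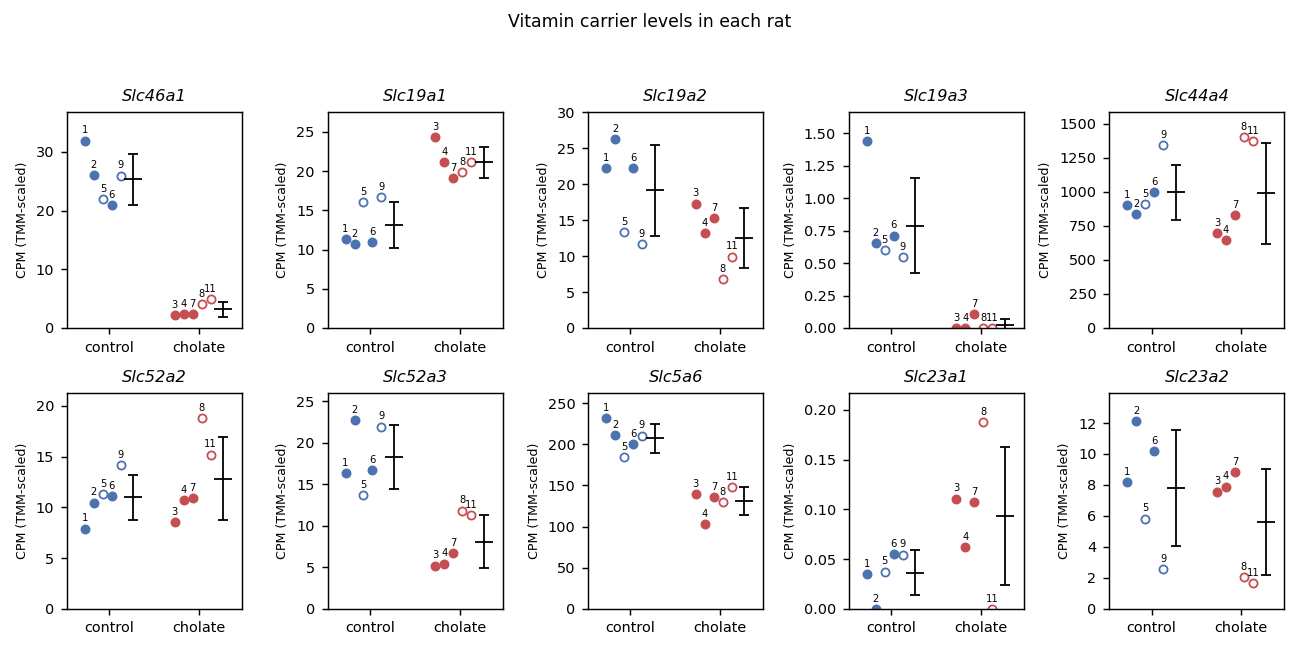
Levels of the 10 carriers in each rat (CPM after TMM scaling, linear axes from 0), with rat numbers beside the points, open circles for control rats 5 and 9 and cholate rats 8 and 11, and bars for mean ± SD of 5 rats. Slc46a1 lies between 20.9 and 31.9 CPM in controls and between 2.18 and 4.86 CPM on cholate, while Slc44a4 overlaps between diets.

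Thiamine carriers differed in level as well as in their difference between diets. Slc19a3 (Entrez 316559, chromosome 9, 88762775 to 88828553, minus strand) had few reads, with 41, 17, 16, 26 and 10 counts in control rats 1, 2, 5, 6 and 9. In cholate rats 3, 4, 8 and 11 it had 0 counts, and in cholate rat 7 it had 4. Its control mean was 0.788 ± 0.368 CPM, with rat 1 at 1.44 CPM above the other controls at 0.544 to 0.711 CPM. Pooled over each diet, 110 counts in controls against 4 on cholate gave a ratio of control to cholate of 28.7 (95% exact interval 10.9 to 107.2, counting error only). The interval leaves out the spread between rats, with 41 of the 110 control counts from rat 1, and is no test of the diet. A count of 0 allows up to 3 counts, which is 0.0662 CPM in the deepest library and 0.209 CPM in the shallowest, before TMM scaling. The fitted log2 fold change of -4.64 (SE 0.77) became -7.42 without cholate rat 7, the only cholate rat with reads. Slc19a3 passed the filter on low counts only through the control rats.

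Slc19a2 (Entrez 289175, chromosome 13, 82552586 to 82566586, plus strand), the thiamine carrier found in most tissues, was far more abundant than Slc19a3. It stood at 22.3, 26.3, 13.3, 22.3 and 11.6 CPM in control rats 1, 2, 5, 6 and 9 and at 17.3, 13.2, 15.3, 6.76 and 9.95 CPM in cholate rats 3, 4, 7, 8 and 11. The diets overlapped, and within each diet the libraries that stood apart held the lowest values. The log2 fold change was -0.61 (SE 0.30), and it was -0.60 in the 6 libraries and -0.62 in the other 4.

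Slc44a4 (Entrez 294255, chromosome 20, 4593389 to 4609641, plus strand) was the most abundant carrier, at 998.8 ± 201.8 CPM in controls and 990.2 ± 370.8 CPM on cholate. The single values were 903.5, 834.7, 912.4, 998.9 and 1344 CPM in control rats 1, 2, 5, 6 and 9 and 696.4, 645.7, 830.0, 1403 and 1376 CPM in cholate rats 3, 4, 7, 8 and 11. Its high values were in control rat 9 and cholate rats 8 and 11, so it varied more among rats of a diet than between the diets (log2 fold change -0.01, SE 0.24). The direction was not stable, at -0.30 in the 6 libraries and 0.26 in the other 4. Summed goblet cell markers, 6 genes, were also highest in those 3 rats, at 19560 CPM in control rat 9, 12554 CPM in cholate rat 8 and 21859 CPM in cholate rat 11, against 4658 to 10330 CPM in the others. The part of goblet cells in the Slc44a4 level was not tested.

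Of the riboflavin carriers, Slc52a3, known in human intestine as the carrier of the luminal membrane, was lower on cholate, and Slc52a2, the form found in most tissues, was not separated by diet. Slc52a3 (Entrez 311536, chromosome 3, 147503266 to 147517935, plus strand) stood at 16.3, 22.7, 13.7, 16.7 and 21.9 CPM in control rats 1, 2, 5, 6 and 9. Cholate rats 3, 4, 7, 8 and 11 had 5.21, 5.44, 6.67, 11.8 and 11.2 CPM. No cholate value reached the lowest control value, that of rat 5, and rats 8 and 11 came nearest. The log2 fold change was -1.19 (SE 0.28), with -1.65 among the 6 libraries and -0.67 among the 4. Slc52a2 (Entrez 362942, chromosome 7, 117605038 to 117608460, plus strand) ranged from 7.89 to 14.2 CPM in controls and from 8.53 to 18.8 CPM on cholate, with a log2 fold change of 0.22 (SE 0.24). Per kilobase of coding length, the Slc52a3 level over the Slc52a2 level was 1.66 ± 0.394 in controls, from 1.18 to 2.11, and 0.602 ± 0.0806 on cholate, from 0.492 to 0.719. The ratio thus separated the diets in all 10 rats, as the Slc52a3 level alone did. Relative to its mean, the ratio varied less than the Slc52a3 level among cholate rats but not among controls. Which carrier was the more abundant in controls depended on the length used. Per kilobase of exon length the control means were 3.18 CPM for Slc52a3 and 3.65 CPM for Slc52a2.

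**Figure D2:**
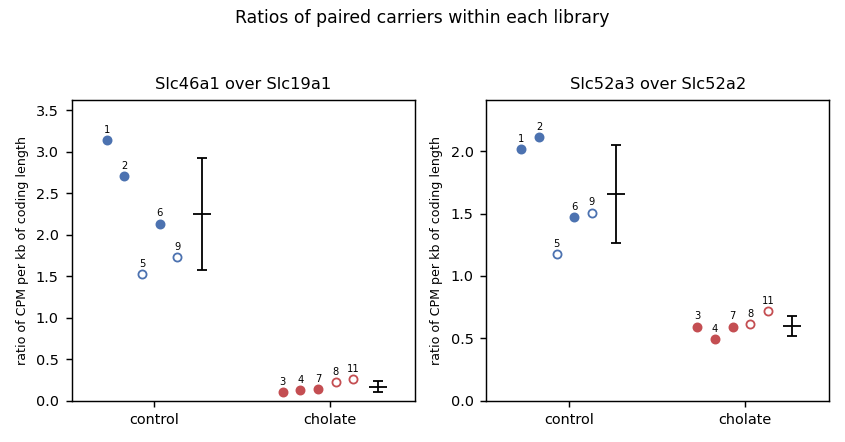
Ratios of levels per kilobase of coding length within each library, Slc46a1 over Slc19a1 on the left and Slc52a3 over Slc52a2 on the right, with rat numbers, open circles for control rats 5 and 9 and cholate rats 8 and 11, and mean ± SD of 5 rats. The first ratio falls between 1.52 and 3.14 in controls and is at most 0.257 on cholate, and the second is at least 1.18 in controls and at most 0.719 on cholate.

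Slc5a6 (Entrez 170551, chromosome 6, 26685823 to 26697110, plus strand) takes up biotin, pantothenate and lipoate with sodium. Its control levels of 232.2, 211.2, 184.2, 200.003 and 210.7 CPM in rats 1, 2, 5, 6 and 9 all lay above its cholate levels of 139.3, 103.2, 135.9, 129.6 and 148.5 CPM in rats 3, 4, 7, 8 and 11. The log2 fold change was -0.66 (SE 0.12). Slc5a6 was the least variable carrier among controls, with a coefficient of variation of 8.45%, and its difference was similar in the 6 libraries (-0.74) and the other 4 (-0.55).

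With Slc19a3, the ascorbate carriers were the least abundant in controls, and they were not separated by diet. Slc23a2 (Entrez 50622, chromosome 3, 124632491 to 124842225, minus strand), the form found in most tissues, stood at 8.20, 12.1, 5.82, 10.2 and 2.56 CPM in control rats 1, 2, 5, 6 and 9. In cholate rats 3, 4, 7, 8 and 11 it stood at 7.57, 7.89, 8.84, 2.07 and 1.67 CPM. The lowest values were those of control rat 9 and cholate rats 8 and 11, and the log2 fold change was -0.46 (SE 0.52), with -0.30 among the 6 libraries and -1.20 among the other 4. Those 3 rats also had totals of 14337356 to 19883925 counts, under every other library, and the part of depth in the Slc23a2 level was not tested. Slc23a1 (Entrez 50621, chromosome 18, 28413910 to 28428133, minus strand), the epithelial form, had 1, 0, 1, 2 and 1 counts in control rats 1, 2, 5, 6 and 9. Cholate rats 3, 4, 7, 8 and 11 had 3, 3, 4, 3 and 0. These counts are at or near the limit that a count of 0 allows, so no fold is given. Slc23a1 also overlaps the antisense gene Paip2, and Slc23a2 overlaps LOC100909706 on its own strand. The libraries were strand-specific, but no source used here states how reads shared by overlapping genes were assigned.

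After the filter on low counts 9 of the 10 carriers remained, all but Slc23a1. By the criteria of the series design text, a false discovery rate below 0.01 with more than a 2-fold change, 2 of the 9 lay past the threshold, Slc46a1 and Slc19a3, both lower. Over all 12385 genes tested, 3.21% lay past it, 2.12% lower and 1.1% higher. On cholate 4 carriers lay wholly below the controls (Slc46a1, Slc19a3, Slc52a3 and Slc5a6) and 1 wholly above (Slc19a1), where 6.8% of all genes lay wholly below and 6.3% wholly above. Nothing is read from these counts, because the carriers were picked with the same comparison known. As description only, Slc19a3 fell short of the threshold without control rat 1, 2 or 6 and without cholate rat 3 or 4. Slc52a3 lay past it in 5 of 20 alternative settings. With all 10 rats these were library size scaling, DESeq2 and limma-voom, and with fewer rats the fit without cholate rat 8 (-1.37) and the 6 libraries.

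**Figure D3:**
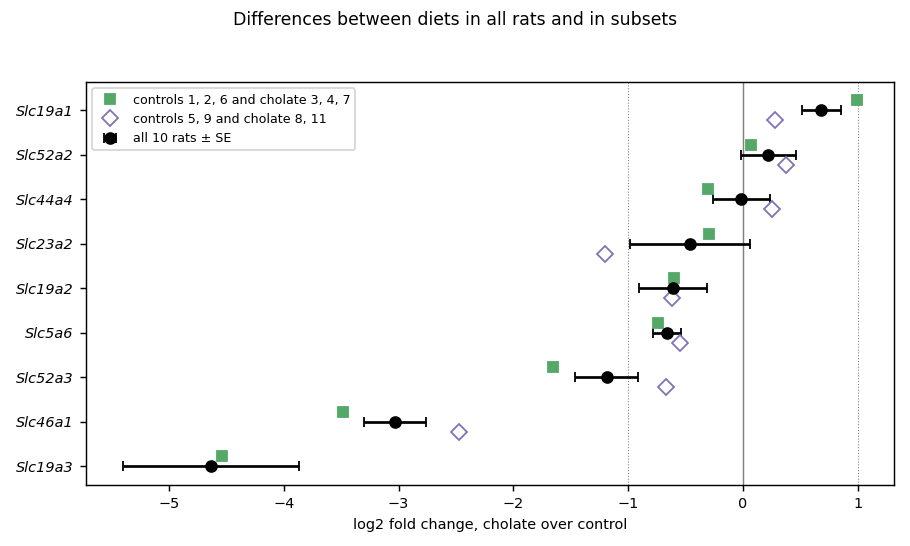
Log2 fold change of cholate over control for the 9 carriers that passed the filter, in all 10 rats (black, ± approximate SE), in controls 1, 2 and 6 with cholate rats 3, 4 and 7 (green squares) and in controls 5 and 9 with cholate rats 8 and 11 (open diamonds). Dotted lines mark a fold change of 2, and Slc19a3 has no value in the subset of 4. Slc46a1 lies at -3.03, -3.48 and -2.47, while Slc44a4 lies at -0.01, -0.30 and 0.26.

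Levels can be compared between genes per kilobase of coding length, the length the deposited table gives. In controls the order was Slc44a4 (470.3 ± 95.03 CPM per kilobase), Slc5a6 (109.0 ± 9.21), Slc46a1 (18.4 ± 3.14), Slc19a2 (13.95 ± 4.62), Slc52a3 (13.1 ± 2.79), Slc19a1 (8.54 ± 1.92), Slc52a2 (8.11 ± 1.65), Slc23a2 (3.90 ± 1.88), Slc19a3 (0.545 ± 0.255) and Slc23a1. The steps from Slc44a4 to Slc5a6, from Slc5a6 to Slc46a1, from Slc23a2 to Slc19a3 and from Slc19a3 to Slc23a1 exceeded the spread over rats. From Slc46a1 to Slc23a2, by contrast, the ranges of each neighbouring pair overlapped. Slc44a4 stood at the 98.0th percentile of the genes tested, Slc5a6 at the 90.0th, Slc46a1 at the 54.1st and Slc19a3 at the 4.81st. On cholate Slc46a1 ranked 8 of 10, at 2.28 ± 0.879 CPM per kilobase, a range that overlapped that of Slc23a2 (2.81 ± 1.72), and Slc19a1 ranked 3, at 13.7 ± 1.29. Dividing by exon length instead moved only Slc52a2, Slc52a3 and Slc19a1 in the control order. On cholate it placed Slc46a1 (1.03 CPM per kilobase) above Slc23a2 (0.524), so the rank of 8 for Slc46a1 depended on the length used.

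The genes with profiles most like that of Slc46a1 over the 10 libraries were found among 9498 others whose mean reached 5 CPM on at least 1 diet. The measure was the root mean square difference in log2(CPM + 0.5) after each gene was centred on its control mean. The nearest were the secretoglobin Scgb1a1 (0.28), the muscle intermediate filament desmin, Des (0.28), the luminal calcium channel Trpv6 (0.31), the slow muscle troponin Tnni1 (0.31) and the endosomal protein Rab11fip5 (0.37). The median over all genes compared was 2.10. Slc46a1 was picked with its diet difference known, so any gene without such a difference lies far from it by construction. The median thus gives no measure of likeness beyond a similar difference between diets. Scgb1a1 stood at 768.4 ± 99.4 CPM in controls and 110.8 ± 45.9 CPM on cholate, and Trpv6 at 172.9 ± 56.2 and 21.5 ± 10.4 CPM. Tnni1 stood at 6.37 ± 2.44 and 0.538 ± 0.181 CPM, so its mean reached 5 CPM only in controls. Its cholate level was near the pseudocount of 0.5, which shrinks its difference in this measure (fitted log2 fold change -3.60). Des stood at 38.2 ± 8.05 and 4.502 ± 1.68 CPM. It is 1 of 6 smooth muscle markers, whose sum was 42.4 to 61.9 CPM in controls and 8.17 to 13.5 CPM on cholate. Of these 6, only Des and Myh11 passed the filter on low counts. Both lay wholly below the controls on cholate, with log2 fold changes of -3.10 for Des and -0.86 for Myh11. Acta2, a smooth muscle actin, had 2 counts over all controls and 17 over all cholate rats. Actg2 had 18 and 13, at or near 0 against Des with 5059 and 542. The part of muscle cells in the Des level was not tested. With a pseudocount of 2 in place of 0.5, 2 of the 5 nearest genes, Des and Rab11fip5, stayed among the nearest 5. Without cholate rat 8 Scgb1a1 and Des stayed.

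**Figure D4:**
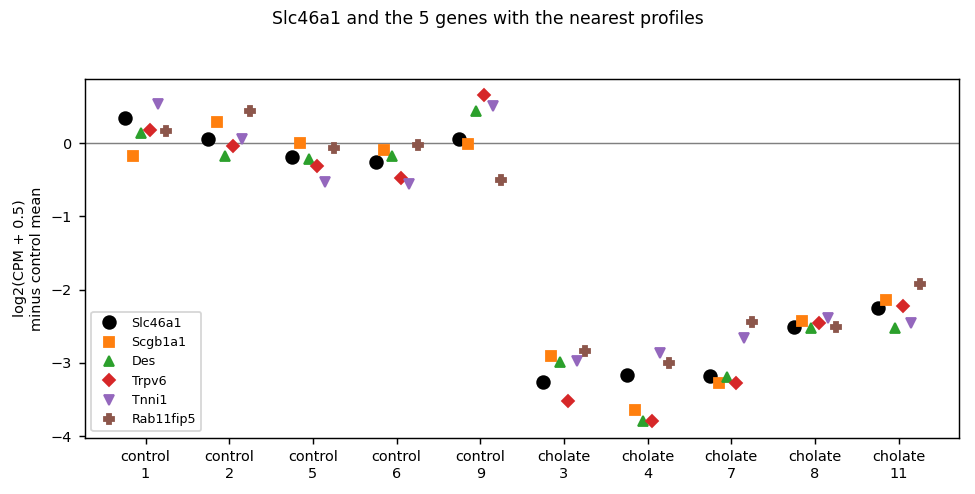
Profiles of Slc46a1 (black circles) and its 5 nearest genes over the 10 libraries, as log2(CPM + 0.5) minus the mean of the control rats. The nearest profiles have root mean square differences of 0.28 to 0.37 from that of Slc46a1, and each of the 6 genes lies closer to the controls in cholate rats 8 and 11 than in cholate rats 3 and 4, while in cholate rat 7 Rab11fip5 lies at -2.44, nearer than in rat 8 (-2.51).

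The genes that store and use the same vitamins were taken from 11 lists of 154 genes in all, 123 of which were tested with edgeR's quasi-likelihood test and Benjamini-Hochberg adjustment over all genes. Of the 123, 2 rose and 3 fell, where 1.1% of all genes tested rose and 2.12% fell. On cholate 15 of the 123 lay wholly above the controls and 7 wholly below, where 6.3% and 6.8% of all genes did. Nothing is read from these counts, because the lists were chosen with earlier results known. The median log2 fold change of the 123 was 0.08 against -0.01 over all genes tested. Among the 6 libraries alone 7 rose and 6 fell, but 1003 of all genes were called there in either direction, against 398 in all 10 libraries. Among the other 4 libraries, where 112 of all genes were called, 1 rose, the folate and drug exporter Abcg2, and none fell. None of the 5 was thus called there.

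In folate one-carbon metabolism, 1 of 20 tested enzymes rose and 1 fell, against 1.1% and 2.12% of all genes, with a median log2 fold change of 0.33. Shmt1, the cytosolic enzyme that moves a carbon unit from serine to folate, rose from 16.9 ± 3.09 to 39.5 ± 5.06 CPM (log2 fold change 1.23, SE 0.16, adjusted p = 0.0015). All cholate rats lay above all control rats, and the call held with any rat left out, but not among controls 5 and 9 with cholate rats 8 and 11 (0.97). Sardh, the mitochondrial sarcosine dehydrogenase, fell from 5.45 ± 1.28 to 1.63 ± 0.699 CPM (-1.76, SE 0.33, adjusted p = 0.00764). With 1 rat left out at a time, Sardh missed the call in 8 of 10 fits, all except those without control rat 9 or cholate rat 11, with log2 fold changes of -1.92 to -1.59. Sardh overlaps the antisense gene LOC102548789. Named after their values were seen, Shmt2, the mitochondrial form of Shmt1, had a log2 fold change of 0.97 (adjusted p = 0.0123), and Mthfd1, which interconverts folate one-carbon forms, had 0.87 (adjusted p = 0.0039), under the fold limit. Mthfd1 also overlaps an antisense gene.

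None of the 9 tested genes of folate handling passed, where the median log2 fold change was 0.36. Fpgs, which adds glutamates to folate and so holds it in the cell, came nearest at 13.5 ± 4.87 and 28.8 ± 2.69 CPM (1.098, SE 0.23, adjusted p = 0.0118), and it was called in 5 alternatives, among them those without control rat 9 (1.30) and in the 6 libraries (1.44). Folh1, which trims dietary folate at the small intestinal surface, had no reads in any library, and the folate receptor Folr1 stood at 3.12 and 3.70 CPM.

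None of 12 tested genes of thiamine use, 5 of riboflavin use or 16 of biotin and pantothenate use passed, with median log2 fold changes of 0.29, 0.36 and 0.04. Transketolase, Tkt, which needs thiamine pyrophosphate, stood at 477.9 ± 83.4 CPM in controls and 782.0 ± 169.8 CPM on cholate (0.71, adjusted p = 0.0196). The phosphatase Acp5 had the smallest adjusted p of the riboflavin list (0.80, adjusted p = 0.0227). Pyruvate carboxylase, Pc, a biotin enzyme that overlaps the antisense gene Lrfn4, had a log2 fold change of 0.62 (adjusted p = 0.00946), under the fold limit. Acacb, the mitochondrial acetyl-CoA carboxylase and also a biotin enzyme, named after its values were seen, lay the other way (-1.17, adjusted p = 0.0113), with every cholate rat below every control rat, and was called lower in the 6 libraries. Among 8 tested genes of ascorbate none passed, and glutaredoxin Glrx came nearest, at 152.7 ± 20.9 and 295.8 ± 50.0 CPM (0.95, adjusted p = 0.00291). Glrx was just under the fold limit and crossed it without control rat 6, cholate rat 3 or cholate rat 11, with values of 1.00 to 1.03, and in the 6 libraries.

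Of 10 tested cobalamin genes 2 fell, against 2.12% of all genes tested, in a list chosen with earlier results known. Tcn2, transcobalamin, which carries cobalamin to cells, fell from 57.6 ± 4.10 to 21.7 ± 5.06 CPM (-1.41, SE 0.17, adjusted p = 0.00108), a call that held with any rat left out but not among controls 5 and 9 with cholate rats 8 and 11 (-1.13). Amn, amnionless, the membrane anchor of the cobalamin receptor, fell from 15.0 ± 5.42 to 3.62 ± 1.87 CPM (-2.06, SE 0.36, adjusted p = 0.00519). Without control rat 1, 2 or 6 or cholate rat 3, 4 or 7 the call was lost, with log2 fold changes of -2.17 to -1.87 in those fits. Cubn, the other part of that receptor, had 2 counts in controls and 0 on cholate, and the remaining tested genes of the list lay between -0.40 and 0.44.

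None of 13 tested genes of choline and 11 of niacin and pyridoxine passed, with the smallest adjusted p values those of Chat (-0.89, adjusted p = 0.103) and Nmrk1 (-0.39, adjusted p = 0.0894). Of 9 tested genes of fat-soluble vitamin uptake, 1 rose, against 1.1% of all genes tested, in a list chosen with earlier results known. The gene that rose was Npc1l1, which takes up sterols and vitamin E, from 0.633 ± 0.369 to 3.25 ± 1.23 CPM (2.38, SE 0.44, adjusted p = 0.00695). Leaving out 1 rat at a time ended this call in 8 of 10 fits, all except those without control rat 9 or cholate rat 3, with log2 fold changes of 2.22 to 2.69 over the 10. The annotated Npc1l1 gene overlaps Ogdh and several other genes, so its counts are uncertain. None of 11 tested factors reported to act on promoters of these carriers, mostly in human cells, passed. The vitamin D receptor Vdr stood at 195.9 ± 60.6 and 98.5 ± 39.3 CPM (-0.99, adjusted p = 0.0514) with overlapping diets over all 10 rats. By the same test Vdr had -0.925 among the 6 libraries (adjusted p = 0.00367) and -1.13 among the other 4 (adjusted p = 0.0138). Neither subset value passed both criteria. Hnf4a had a log2 fold change of -0.27, Cdx2 one of 0.34 and Elf3 one of -0.51.

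**Figure D5:**
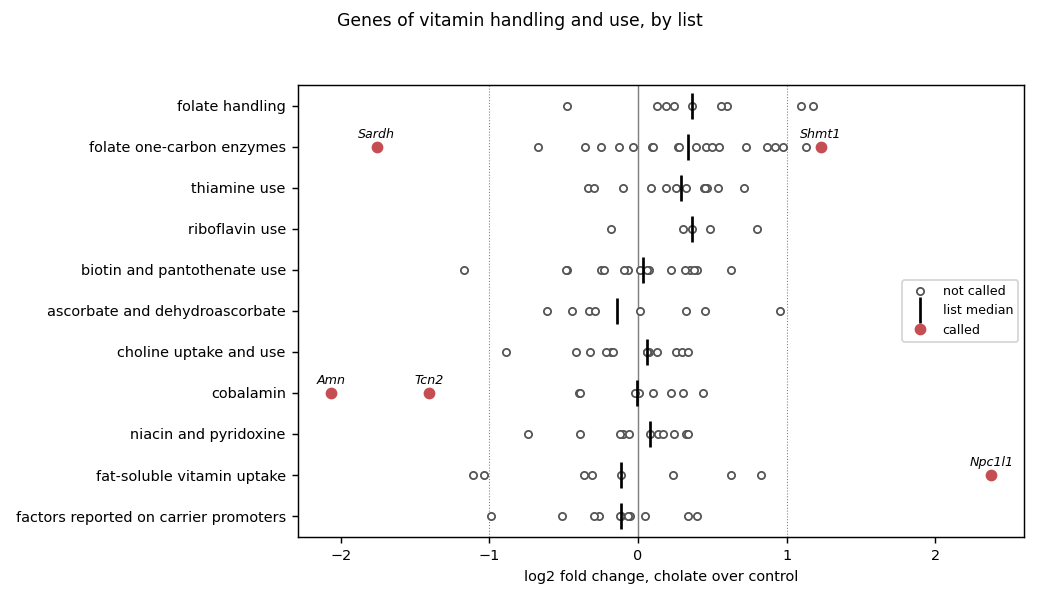
Log2 fold change of cholate over control for the tested genes of 11 lists of vitamin handling and use, with called genes filled and named, other genes open, and the list median as a black bar. Dotted lines mark a fold change of 2. Shmt1 and Npc1l1 were called higher and Sardh, Amn and Tcn2 lower.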

How the data were processed

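The deposited table holds raw read counts per gene for 10 libraries, and beside them the authors' normalized signal, CPM scaled by TMM with edgeR 3.16.2, per the series design text and column names. Reads came from strand-specific, polyA-selected libraries and were mapped with BWA 0.7.12-r1039, per the same text. The submitters' processing notes also name build rn6 and bcl2fastq 1.8.4. No source used here names the counting program or its strand setting. The length column equals the merged coding length of the deposited annotation for 100% of genes.

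Only raw counts were used for comparisons. Of 23422 genes, 6442 had no reads. In R 4.3.3 with edgeR 4.0.16, filterByExpr with the diets as groups removed low genes, TMM factors were recomputed, and the robust quasi-likelihood F test was run with diet as the only term. Adjusted p values are Benjamini-Hochberg over 12385 genes, called under 0.01 where the log2 fold change exceeded 1 in size. Approximate standard errors divide the size of the log2 fold change by the root of F. Intervals and floors cover counting error only. In simulated data with 12301 genes run, the test called 62 of 100 genes given a log2 change of 1.5 and 82 of 100 given one of 2.5, and made 4 false calls. Each simulated gene was drawn independently. The split of libraries on the first principal component was not simulated, so these rates may differ in the real libraries.

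The carriers and lists were chosen with earlier results of these data known. The naming rule took all 10 carriers, up to 4 called genes per pathway list or else the one with the smallest adjusted p, and the 5 genes nearest to Slc46a1. Alternatives used DESeq2 1.42.0 and limma 3.58.1 as well as other scalings, filters and left-out rats. The 2 subsets of libraries were chosen after the data were seen. Sequences are from RefSeq, build GRCr8.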

Additional observations from a re-analysis of the deposited data

Results flagged for a closer look

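Slc19a3 in control rat 1 stood at 1.44 CPM, set apart from the other 4 control rats at 0.544 to 0.711 CPM. Slc19a3 in cholate rat 7 stood at 0.107 CPM (4 counts), where the other 4 cholate rats had 0. Both were picked out because the gap to the nearest rat of the same diet exceeded the 95% critical share of the range, 0.71 for 5 rats. With 4 rats at 0, any value above 0 would be picked out, and 4 counts lie just above the 3 that a count of 0 allows. Of 56 groups of 5 rats examined, 2 were picked out, and chance alone picks out about 1 in 20.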

How the results depend on the processing

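No paired analysis was possible because each rat number occurs on a single diet. The number of genes called, 398, was 788 by DESeq2, 168 to 450 with 1 rat left out, 1003 among controls 1, 2 and 6 with cholate rats 3, 4 and 7, and 112 among the other 4 rats. It was lowest without control rat 2 (168), 1 (192) or 6 (200) and cholate rat 4 (207) or 7 (221). The number of carriers past the threshold, 2, was 1 when genes under a 5 CPM mean were dropped, Slc19a3 among them, 1 among the 4 rats, where Slc19a3 was not tested, and 1 to 3 with 1 rat left out. It was 3 with library size scaling, by DESeq2, by limma-voom and among the 6 rats. The 5 vitamin pathway genes called were 10 by DESeq2, 13 among the 6 rats, 1 among the 4 and 2 to 9 with 1 rat left out (9 without control rat 9, 2 without control rat 1 or 2 or cholate rat 4 or 7, and 3 without control rat 5 or 6 or cholate rat 8). With a pseudocount of 2, 2 of the 5 genes nearest to Slc46a1 were kept, and with 1 rat left out 2 to 5 were. The causes of these changes were not tested. None of the 5 called pathway genes changed direction in any setting run. Fold changes of Slc19a3 are limited by depth, with 0 counts in 4 libraries.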
